A study of Mus musculus with 16 samples.

Results

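The keratin genes of the mouse genome were followed across the ectoderm and the mesoderm of the growing forelimb tip. Members were taken by name, as every row of the gene table whose symbol is Krt followed by a number and at most 1 small letter. Of the 54 symbols of this form, Krt74 was left out because the annotation calls it a pseudogene (13 counts over all 16 libraries), which left 53 genes among the 53800 of the table. Polyadenylated RNA had been sequenced from distal forelimb buds of B6 embryos, for which the labels name no allele and no treatment. Each bud was split with trypsin and forceps into ectoderm, the surface epithelium with its apical ridge, and mesoderm, which holds the mesenchyme, vessels and blood. Each layer was sampled on 4 successive embryonic days, written E9.5 to E12.5, and each of the 8 groups holds 2 libraries. Where values of an ectoderm or mesoderm gene are listed in a row, they follow the stages in order, replicate 1 before replicate 2. The 2 libraries of a group came from different batches of embryos, and the ectoderm and mesoderm of 1 batch were sequenced as a pair.

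Keratins are the intermediate filament proteins of epithelial cells. A filament is built from pairs of unlike chains, 1 acidic chain of type I and 1 neutral or basic chain of type II, so an epithelium makes members of both types. The type I and type II genes lie in separate clusters, and the pairs are fixed by cell type. Krt8 with Krt18 is the pair of simple (single-layered) epithelia, and Krt5 with Krt14 is the pair of the basal layer of stratified epithelia such as the epidermis. Krt1 and Krt10 mark the layers above it, and a further large set serves hair, nail and tongue. During embryonic life the single-layered surface ectoderm becomes a stratified epidermis with a temporary outer layer, the periderm.

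In the coordinates of the gene table (mm10), 27 members lay in 1037 kb of chromosome 11 (99232761 to 100269871), all on the minus strand and all of type I. The other 26 lay in 684.6 kb of chromosome 15 (101347444 to 102032027). Of these, 25 were of type II, and the remaining gene was Krt18, a type I gene 23.7 kb from its partner Krt8. Chromosome therefore separated the types for every member except Krt18. Krt5 lay at chr15:101707070-101712898 and Krt14 at chr11:100203162-100207548, both on the minus strand. The members that carry the results below are protein-coding genes, and their values are sums over exons. Overlapping genes on the opposite strand are annotated at Krt10, Krt80, Krt7, Krt6a, Krt8, Krt90, Krt75 and Krt5 among them, and the sources used here do not say whether reads were counted by strand.

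Sequences just before the start of transcription are shown for members that changed in ectoderm and whose start is the same, or nearly the same, in both annotations used. RefSeq (GRCm38.p6, the same assembly as mm10) supplied a window of 250 bases before and 50 bases after a start for 36 members, 37 windows in all. In 4 of these the RefSeq start lay over 100 bases inside the gene span of the table, by 1518 bases for Krt14, 1300 for Krt7, 989 for a further window of Krt13 and 140 for Krt8. These 4 do not show the sequence before the gene as counted here and were left out, a limit set after the windows were seen. The letters TATAA or ATAAA, parts of the TATA box that positions the polymerase, were searched on the coding strand from base -45 to base -16 before the RefSeq start. They stood in 24 of the 33 keratin windows left (72.7%), against 7.21% of the 15348 windows of all genes under the same limit. With every window it was 24 of 37 (64.9%), against 6.54% of 32851. Among members that exceeded 1 CPM (counts scaled to 1000000 per library) the share was 9 of 12. TATAA by itself stood in 17 keratin windows (51.5%, against 4.88% of all), and ATAAA by itself in 20 (60.6%, against 5.38%), and a window can hold both, since the patterns overlap. The core of the GC box, GGGCGG, searched on both strands of the 250 bases before the start, stood in 1 keratin window (3.03%) and in 42.9% of all. GCCNNNGGC, a form of the AP-2 motif searched the same way, stood in 4 (12.1%) and in 15.8%. The last 60 bases before the RefSeq start are given 5′ to 3′ on the coding strand, with matches to TATAA or ATAAA in capitals. The first 4 belong to members that were higher in ectoderm at E12.5 than at E9.5, and the last to a member that was lower.
Krt5: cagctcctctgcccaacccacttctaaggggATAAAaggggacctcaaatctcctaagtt
Krt75: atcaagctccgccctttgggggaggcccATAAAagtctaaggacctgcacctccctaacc
Krt9: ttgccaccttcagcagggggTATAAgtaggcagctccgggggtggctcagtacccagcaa
Krt2: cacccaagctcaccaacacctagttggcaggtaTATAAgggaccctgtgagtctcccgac
Krt23: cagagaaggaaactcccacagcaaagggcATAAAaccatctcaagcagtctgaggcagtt
The matches began at base -29 in Krt5, -32 in Krt75, -40 in Krt9, -27 in Krt2 and -31 in Krt23. The table's start was the RefSeq start in Krt75, Krt9 and Krt2, lay 7 bases after it in Krt5 and 17 bases before it in Krt23. On the minus strand of GRCm38.p6 these stretches are chr15:101712906-101712965 (Krt5), chr15:101573905-101573964 (Krt75), chr11:100193247-100193306 (Krt9), chr15:101818170-101818229 (Krt2) and chr11:99493121-99493180 (Krt23). Members with a match were thus found in each direction of change. Krt18, which was also lower at E12.5, is not shown. Its RefSeq start lay 36 bases inside the gene span, under the limit, and its window had no match from base -45 to base -16. The letters TATAA did stand in this window, across the edge of the searched range at base -16, and were not counted. A match is a description of the letters and was not tested as a binding site.

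CPM were computed on the effective library sizes of edgeR. Total gene counts per library ran from 10005867 to 30438214. Of the 53 members, 23 had a mean above 1 CPM in 1 or more groups, 13 of 28 type I genes and 10 of 25 type II genes. In ectoderm 14, 17, 19 and 19 members were above 1 CPM from E9.5 to E12.5, and in mesoderm 6, 6, 8 and 6. The highest group means nearest to the threshold were 1.14 CPM for Krt222, 1.19 for Krt82 and 1.34 for Krt20 above it, and 0.653 for Krt79, 0.348 for Krt16 and 0.326 for Krt87 below it. Krt25, Krt26, Krt40, Krt33b, Krt31, Krt73, Krt86 and Krt81 had no count in any library, which allows at most 0.0687 to 0.115 CPM per group (3 counts over its 2 libraries). These limits, and all other floors and intervals, cover counting error only. The members counted at low level were Krt6b, Krt34, Krt13, Krt83, Krt88, Krt76, Krt27, Krt32, Krt36, Krt72, Krt28, Krt24, Krt4, Krt12, Krt71, Krt33a, Krt77, Krt78 and Krt84, apart from the 3 just named. Most of these are genes of hair, inner root sheath, tongue and other mucosae.

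Markers of the surface epithelium were present in every ectoderm library, at a summed 2189 to 4239 CPM over 15 genes, none of them at 0. The sum of 12 limb mesenchyme markers in ectoderm ran from 545 to 2374 CPM. It was highest in ectoderm E11.5 replicate 1, where the median marker stood at 39.3% of its level in the mesoderm of the same batch, against 3.62% to 18.3% in the other 7 ectoderm libraries. Erythroid markers summed to 12 to 715 CPM in ectoderm, highest in E9.5 replicate 2. A lower value in a bulk sample can come from fewer cells of a type or from less RNA per cell, and these cannot be told apart here.

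Taken as a sum, the keratins had a higher mean at each later stage in ectoderm and were low in mesoderm. The summed level in ectoderm was 941 and 693 CPM (replicate 1 and replicate 2) at E9.5, then 2085 and 1537, then 2358 and 2426, and 5646 and 3140 at E12.5. As a share of all gene counts this was 0.0786% ± 0.0149 at E9.5 and 0.431% ± 0.150 at E12.5 (SD, n = 2). In mesoderm the sum ran from 8.54 to 61.5 CPM. The lowest ectoderm library was above the highest mesoderm library by this measure.

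**Figure D1:**
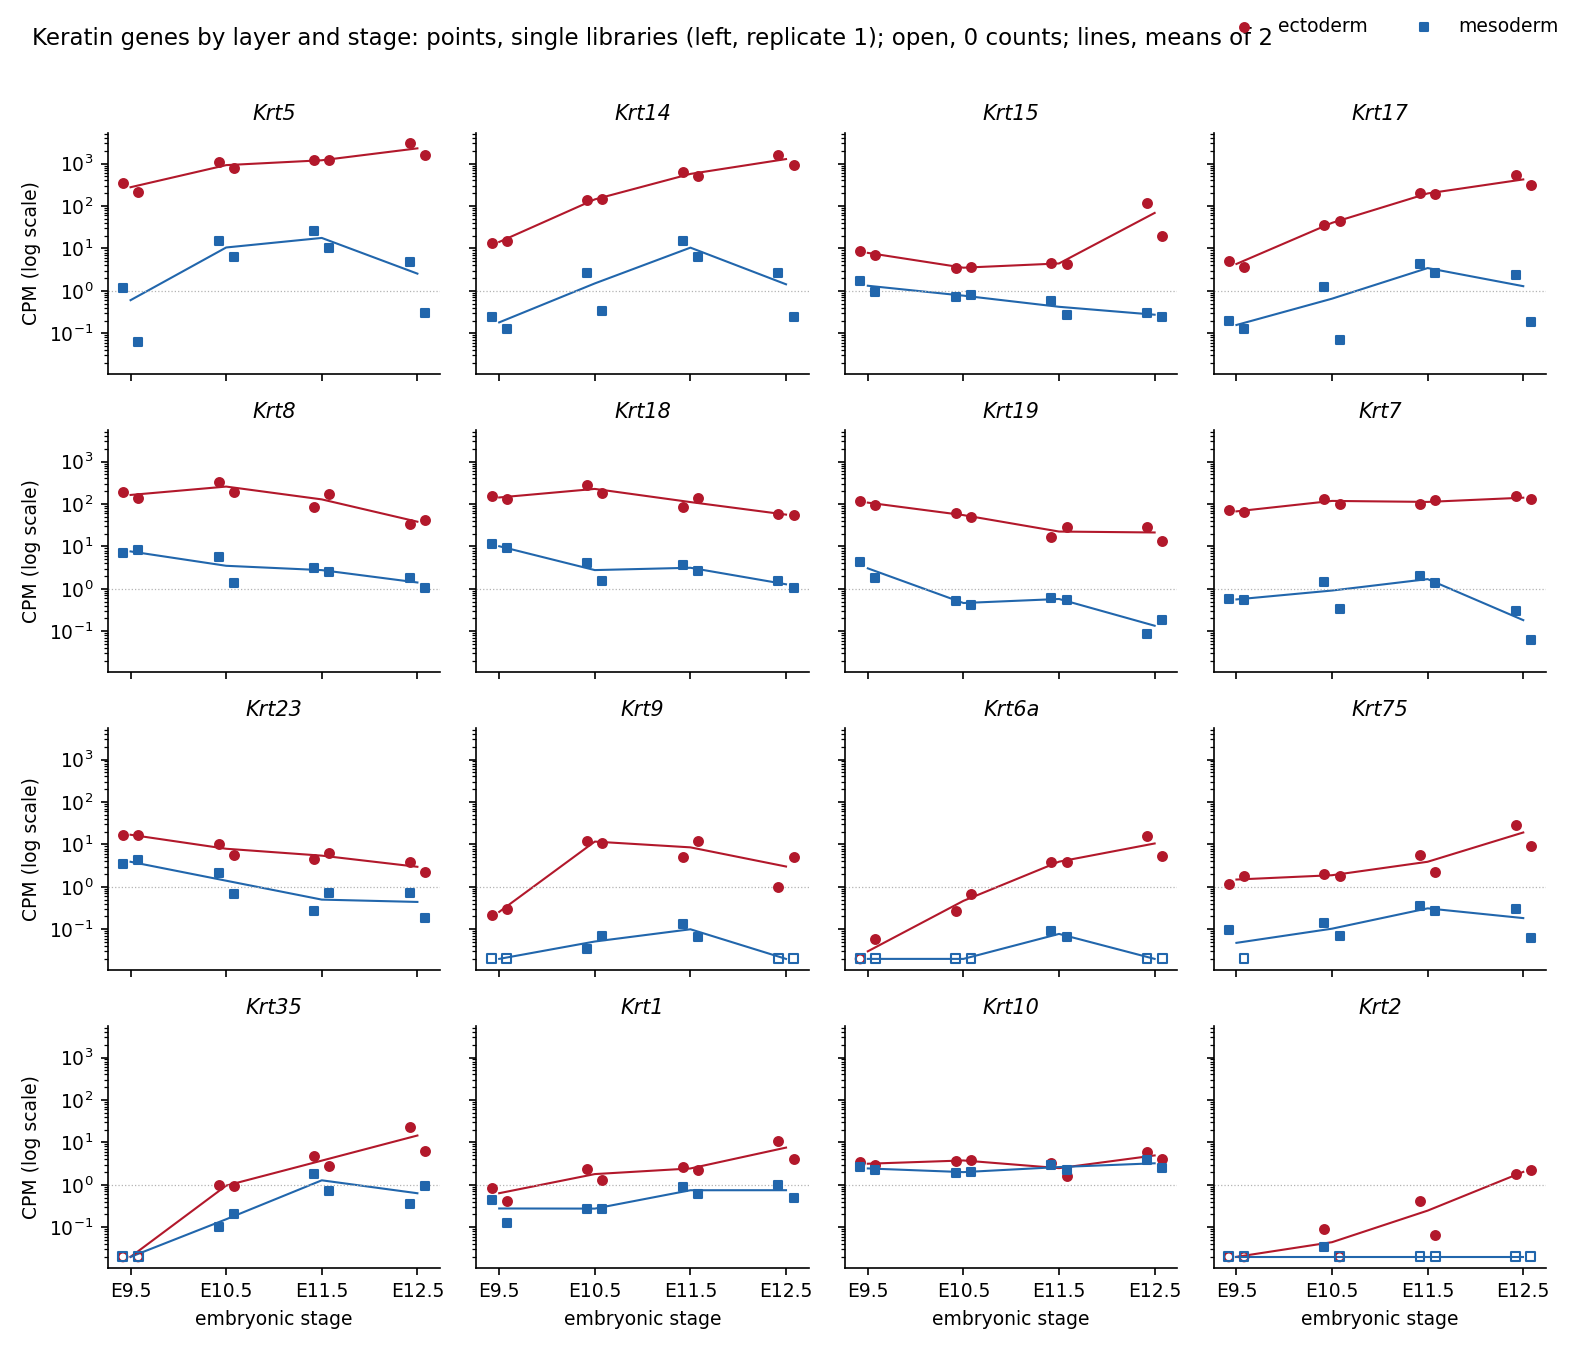
CPM on a log axis (vertical) by embryonic stage (horizontal) for 16 keratin genes. Red circles are ectoderm libraries and blue squares mesoderm libraries, lines join the means of 2, open symbols mark libraries with 0 counts drawn at the bottom, and the dotted line is 1 CPM. Krt5, Krt14 and Krt17 climb in ectoderm, and Krt8, Krt18, Krt19 and Krt23 end lower than they began. For Krt10 the layers lie close, with overlap at E11.5 only.

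Differences were tested gene by gene with edgeR's quasi-likelihood test on all 15501 genes that passed its filter on low counts, with p-values adjusted over all of them by Benjamini and Hochberg, and an adjusted p under 0.05 counted as a call. The filter kept 23 members (all those above 1 CPM except Krt82, and Krt79). A member can pass it through the single group where it is high, so counts over these 23 describe them and are not evidence of their own. Shares of all tested genes are given for the adjusted calls of this test only. Counts by unadjusted p, by another tool or setting, or with a library left out have no such share beside them. The p-values measure the spread between the replicates of a group, which came from different embryo batches, 2 per stage. RNA kits also differed between replicates, as given below, so this spread is not that of embryo batch alone.

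Averaged over the stages, 20 of the 23 members were higher in ectoderm, against 24.3% of all tested genes, and 0 were lower, against 21.4% of all. The median log2 difference was 5.20 over the 23 members and 0.01 over all tested genes. No member was lower in ectoderm at an unadjusted p under 0.05 (0 members), nor by DESeq2 (0) or by limma on FPKM (0), and the same held at each single stage. At E9.5, 13 members were higher (all genes 13.1%) and 0 lower (8.29%). At E10.5, 17 were higher (16.2%) and 0 lower (10.2%). At E11.5, 18 were higher (12.9%) and 0 lower (7.69%). Without ectoderm E11.5 replicate 1, the library with the most mesenchyme marker RNA, 15 were higher at E11.5. At E12.5, 20 were higher (13.3%) and 0 lower (13.2%). Ectoderm and mesoderm of a batch are paired, and with the batch as a block 14, 19, 20 and 20 members were higher from E9.5 to E12.5. The block added Krt9 at E9.5, Krt10 and Krt35 at E10.5, Krt1 and Krt79 at E11.5 and Krt79 at E12.5, and ended the call of Krt20 at E12.5 (adjusted p = 0.0615).

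Layer differences were large for epidermal and simple epithelial members alike. The log2 difference was 7.74 ± 0.54 (estimate ± SE) for Krt5, 7.29 ± 0.26 for Krt7 and 7.03 ± 0.46 for Krt14 (edgeR adjusted p 3.50e-07, 1.80e-09 and 1.81e-07). It was 6.13 ± 0.28 for Krt19, 5.20 ± 0.30 for Krt8 and 5.17 ± 0.22 for Krt18. For Krt5, leaving out mesoderm E9.5 replicate 1 gave 8.56 and leaving out mesoderm E12.5 replicate 1 gave 8.52. For Krt14 leaving out mesoderm E12.5 replicate 1 gave 7.67. It was 7.33 ± 0.67 for Krt42, fitted against mesoderm groups that all had 0 counts, 7.0 ± 0.64 for Krt9, 6.29 ± 0.44 for Krt80, 6.21 ± 1.04 for Krt6a and 6.11 ± 0.43 for Krt17. Krt9, Krt80 and Krt6a had 6, 11 and 3 mesoderm counts in all, each with 0 at E9.5, so their sizes rest on few counts. Krt222, Krt6a and Krt79 lost their calls without ectoderm E9.5 replicate 2 (adjusted p = 1 for each), which left their ectoderm E9.5 value at 0 counts, and Krt39 then missed the threshold (adjusted p = 0.072). Without ectoderm E10.5 replicate 2, Krt222 and Krt79 (adjusted p = 1 for Krt79) also lost theirs. The 3 members not called were Krt10, Krt2 and Krt35. Krt2 and Krt35 had 0 counts in both layers on the first day, so their fitted averages are not a reliable size. Both are still among the 23 members behind the median of 5.20 above. At E12.5 the difference was called for both. Krt2 had 0 counts in mesoderm at E12.5 and was at least 25.9-fold higher in ectoderm (floor of 3 counts over the group), and for Krt35 the log2 difference was 4.54 ± 0.78.

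Krt10 was the member whose layers lay closest. This type I gene of the suprabasal epidermis had 3.38 and 2.90 CPM in ectoderm at E9.5, then 3.55 and 3.94, then 3.28 and 1.66, and 5.81 and 4.02 at E12.5. In mesoderm it had 2.6 and 2.3, 1.93 and 2.05, 2.97 and 2.26, and 3.92 and 2.50 CPM at the same stages. The layers overlapped at E11.5. At the other stages both ectoderm libraries lay above both mesoderm libraries. The pooled ratio of ectoderm to mesoderm was 1.255 at E9.5, 1.913 at E10.5 and 1.525 at E12.5. The average log2 difference was 0.45 ± 0.19 (adjusted p = 0.0706). Blocked by embryo batch it was 0.45 with an adjusted p of 0.0153. In mesoderm Krt10 made up 9.43% to 49.8% of the summed keratin FPKM, and in ectoderm 0.189% to 1.05%. The size of the mesoderm share depended on the unit. At mesoderm E12.5 it was 33.4% and 49.8% in FPKM, and 16.9% and 26.0% in CPM per kilobase of exon.

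The deposited counts per exon bin showed where along the gene these reads lay. An exon bin is a piece of an exon, and the bins of a gene were divided at the middle of its exon length into a 5′ side and a 3′ side. All 543 Krt10 bin counts of the 8 mesoderm libraries lay on the 3′ side, and 0 of 543 on the 5′ side allows a share of up to 0.552%. The eighth and the tenth of the 11 bins from the 5′ end held 189 and 322 of them. The bins that overlap the antisense gene Gm11940 are the third and the fourth, and they held 0. In ectoderm the 5′ side held 40 Krt10 counts, of which 32 came from E12.5 replicate 1 and the other 8 from E10.5 replicate 2. So 6 of the 8 ectoderm libraries had no Krt10 count on the 5′ side.

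Krt1, the type II partner of Krt10, showed a like pattern before E12.5. Its 96 mesoderm bin counts all lay on the 3′ side, and 0 of 96 allows a share of up to 3.12% on the 5′ side. In ectoderm the last bin alone held 15 of 16, 45 of 46 and 94 of 97 counts on the first 3 days in turn. At E12.5 it held 221 of 369, and 92 counts lay on the 5′ side, 81 of them in replicate 1 and 11 in replicate 2. Counts along the whole length of Krt1 were thus seen in the ectoderm of E12.5, in both batches, and 1 count on the 5′ side was seen before it. Krt15 had 155 of 165 mesoderm counts on the 3′ side, against a 3′ share of 56.1% to 70.3% in the ectoderm groups. For Krt5 the 3′ share was 46.5% to 48.1% in the ectoderm groups, with 47.1% of the exon length there. In mesoderm Krt5 had 44.9%, 47.5% and 49.1% from E10.5 to E12.5, on 759, 1038 and 167 counts, and at E9.5 10 of 37 counts lay there. A gene-level value of Krt1, Krt10 or Krt15 in mesoderm is therefore a value of the 3′ side of the gene. The source of the counts was not tested.

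**Figure D2:**
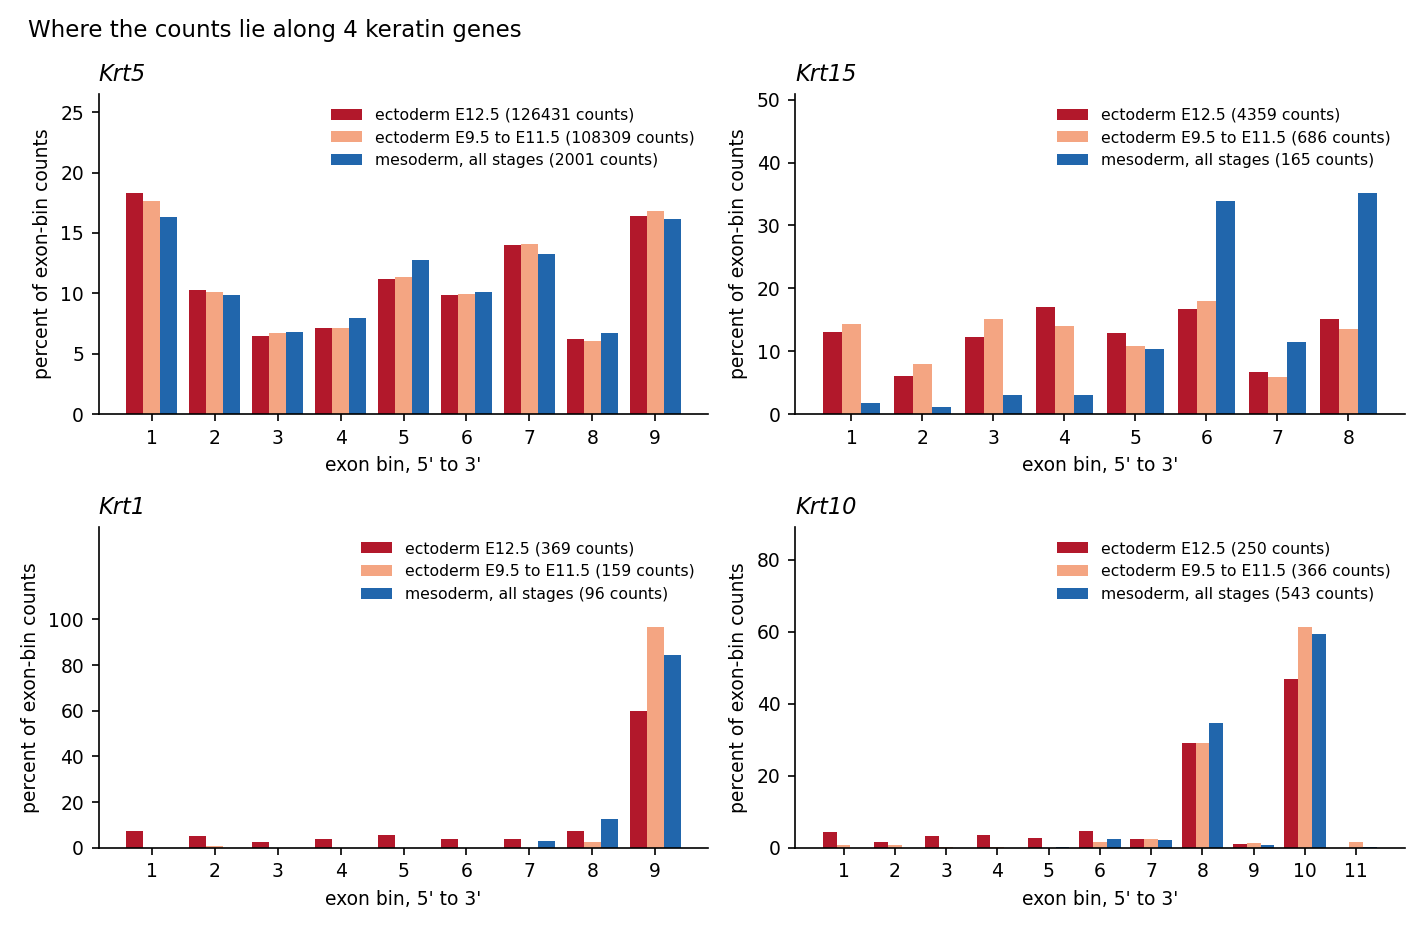
Percent of a gene's exon-bin counts (vertical) in each bin from the 5′ to the 3′ end (horizontal) for 4 keratin genes, summed over the libraries of ectoderm E12.5 (dark red), ectoderm E9.5 to E11.5 (light red) and mesoderm (blue), with the total counts in each legend. Krt5 has 1 profile in all 3 sets, whereas the Krt10 and Krt1 counts of mesoderm sit at the 3′ end, as do those of ectoderm before E12.5.

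The mesoderm value was next expressed as a percent of the ectoderm of the same batch. The median of the 15 surface epithelium markers was 0.453% to 2.66% by this measure. Krt5 ran from 0.0192% to 2.13%, Krt14 from 0.0264% to 2.30% and Krt7 from 0.0475% to 1.94%. Krt19 ran from 0.300% to 3.74%, Krt8 from 0.709% to 6.03% and Krt18 from 0.871% to 7.13%. Single epithelium markers reached higher, with the highest at 6.81% and 5.24% in the E9.5 batches and at 31.0% to 96.0% in the later batches. Krt5, Krt14, Krt7 and Krt19 were above every marker in 0 batches. Krt8 was so in 1 batch and Krt18 in 2, and these were E9.5 batches. Krt23 ran from 6.01% to 25.5%, Krt35 from 1.54% to 39.2%, Krt1 from 9.21% to 50.9% and Krt10 from 52.0% to 137%. Krt10 was above every epithelium marker in 7 of 8 batches. Krt23 and Krt1 were so in 2 each, again the E9.5 batches, and Krt35 in 0 of the 6 batches where ectoderm had counts. Krt39 was above every marker in 4 of 8 batches and Krt222 in 3 of 7, on 48 and 12 mesoderm counts in all. Krt15 and Krt20 were so in 2 batches each, and Krt90, Krt75 and Krt2 in 1 each. These numbers depend on the single highest marker of each batch. Every Krt23, Krt1 and Krt10 value lay above the highest of the marker medians. RNA of the epithelium markers was thus present in the mesoderm samples, and its part in these values was not tested. Krt35, a hair and nail keratin, differed from Krt1 and Krt10 in that its mesoderm counts lay in all 7 bins at E11.5 and at E12.5, with 47 of 72 and 18 of 30 on the 5′ side.

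**Figure D3:**
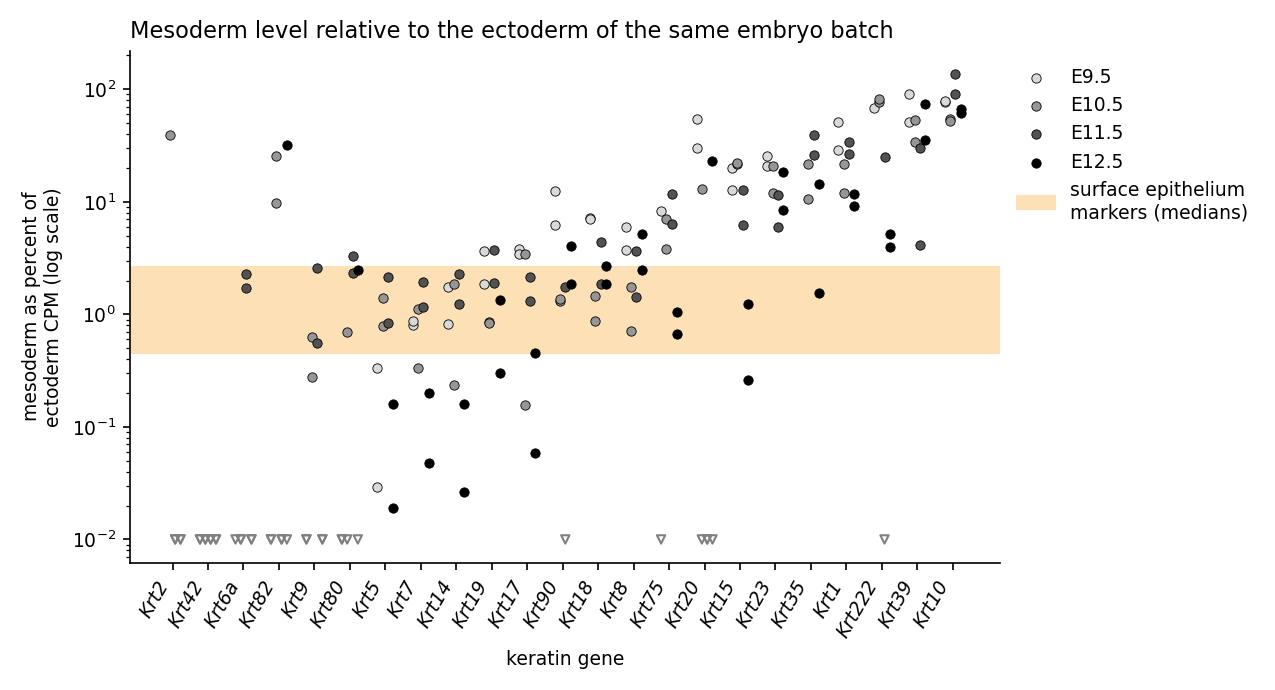
Mesoderm CPM as a percent of the ectoderm CPM of the same embryo batch (log axis) for each keratin gene above 1 CPM, ordered by median. Circles are batches, shaded by stage from light (E9.5) to black (E12.5), triangles at the bottom are batches with 0 counts in mesoderm, and the band is the range of the surface epithelium marker medians (0.453% to 2.66%). Krt5, Krt7 and Krt14 lie in or below the band and Krt10 far above it.

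In ectoderm the basal epidermal keratins were higher at E12.5 than at E9.5 and most simple epithelial keratins were lower. Of the 23 tested members 11 were higher at E12.5 (all genes 9.1%) and 4 were lower (all genes 7%), with a median log2 change of 3.04 against 0.003 over all genes tested. By type, 5 type I and 6 type II members were higher, and 3 type I and 1 type II member were lower. Of the 15 surface epithelium markers 3 were higher and 1 lower, with a median of 0.32. Markers of other cells moved in the same comparison, with 7 of 8 erythroid markers lower (median log2 change -4.21) and 4 of 12 limb mesenchyme markers lower (median -1.48), and their part in the keratin changes was not tested. Only 5 of the 15 calls were made whichever library was left out (Krt14, Krt17, Krt35, Krt6a and Krt19). The stage comparisons below share their E9.5, E10.5, E11.5 or E12.5 libraries and are not independent of each other.

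Among the basal keratins all 3 were higher at E12.5. Krt5, the type II chain of basal keratinocytes, had 343 and 211 CPM at E9.5, then 1062 and 779, then 1185 and 1213, and 2982 and 1592 at E12.5. Both E12.5 libraries lay above every earlier one. The log2 change from E9.5 was 3.04 ± 0.85 (edgeR adjusted p = 0.0319), an 8.24-fold ratio of means, and without ectoderm E9.5 replicate 2 it missed the threshold (adjusted p = 0.21). Krt14, its type I partner, had 13.5 and 15 CPM at E9.5, then 142 and 145, then 638 and 506, and 1633 and 925 at E12.5. The Krt14 stages did not overlap, and its change was 6.49 ± 0.84 (adjusted p = 0.000439), 89.9-fold. Partner genes thus began the series at unlike levels and ended it closer. The ratio of Krt5 to Krt14 in FPKM, which is per length of transcript, was 21.7 and 12.1 at E9.5, then 6.09 and 4.34, then 1.49 and 1.91, and 1.4 and 1.4 at E12.5.

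Krt15, a further type I basal keratin, followed another course. It had 8.54 and 7.18 CPM at E9.5, then 3.37 and 3.67, then 4.56 and 4.30, and 118 and 19.8 at E12.5. The groups at E10.5 and E11.5 had lower means than that at E9.5, and the E12.5 replicates differed 5.95-fold from each other. From E9.5 to E12.5 it changed by 3.13 ± 0.64 (adjusted p = 0.00661). Without ectoderm E12.5 replicate 1 it was 1.33 (adjusted p = 0.0797), and without replicate 2 it was 3.91. Krt19, the nearest member to Krt15 at 4.88 kb, had 119 and 96.6 CPM at E9.5 and 29.1 and 13.6 at E12.5, so these neighbours changed in opposite directions.

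Of the simple epithelial keratins 4 of 6 were lower at E12.5, with a median log2 change of -2.14, and Krt7 was the single one with a positive estimate. Krt8 had 191 and 136 CPM at E9.5, then 322 and 193, then 84.3 and 172, and 34.3 and 42.2 at E12.5. Krt18 had 157 and 128, 274 and 180, 82.9 and 139, and 56.9 and 55.6 CPM. Both peaked by their means at E10.5, and for both the E12.5 libraries lay below all earlier ones. The change from E9.5 was -2.10 ± 0.51 for Krt8 (adjusted p = 0.0166) and -1.34 ± 0.37 for Krt18 (adjusted p = 0.0289). Without ectoderm E12.5 replicate 1 the adjusted p of Krt8 was 0.12, and without ectoderm E9.5 replicate 1 that of Krt18 was 0.15. The ratio of Krt8 to Krt18 in FPKM was 0.854 and 0.762 at E9.5 and 0.418 and 0.546 at E12.5.

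Krt19, a type I keratin of simple and ductal epithelia, had 60.5 and 48.9 CPM at E10.5, and 16.6 and 28.2 on the next day. From E9.5 to E12.5 it changed by -2.33 ± 0.42 (adjusted p = 0.00334), or -2.99 without ectoderm E12.5 replicate 1. Krt23 had 17.1 and 16.6 CPM at E9.5, then 10.1 and 5.67, then 4.43 and 6.42, and 3.75 and 2.18 at E12.5, a change of -2.50 ± 0.60 (adjusted p = 0.0158, and 0.116 without ectoderm E12.5 replicate 2). Krt7, a type II keratin of glandular epithelia, had no such decline. It had 70.7 and 63.4 CPM at E9.5, then 134 and 102, then 103 and 121, and 153 and 128 at E12.5. Its change was 1.07 ± 0.37 (adjusted p = 0.0774), and 1.07 with an adjusted p of 0.00183 with the replicate block. Krt20, an intestinal and Merkel cell keratin, had 1.05 and 1.63 CPM at E9.5 and 0.320 and 0.264 at E12.5 (-2.18 ± 0.74, adjusted p = 0.0744, and 0.0191 with the block). Merkel cell markers summed to 0.724 to 3.74 CPM in ectoderm.

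Among the keratins of periderm, mucosa and stressed epidermis, Krt17 and Krt6a were higher at E12.5. Krt17, a type I keratin of periderm and appendage buds, had 5.06 and 3.56 CPM at E9.5, then 36.4 and 44.0, then 200 and 196, and 533 and 314 at E12.5. Its stages did not overlap, and its change was 6.64 ± 0.82 (adjusted p = 0.000334), 98.3-fold. Krt6a, a type II partner of such keratins, was counted once at E9.5 (0 and 0.0603 CPM). On the 3 following days it had 0.266 and 0.667, 3.92 and 3.90, and 15.7 and 5.28 CPM. The pooled ratio of E12.5 to E9.5 was 298 with a 95% counting interval of 53.3 to 11810. Krt6b, a near-identical copy 9.62 kb away, was among the low members, and reads shared by the copies cannot be placed. Krt16, Krt4 and Krt13 were also low.

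The suprabasal and cornifying keratins stayed at low level, with 4 of 6 tested members higher and positive estimates for all 6. Krt1 had 0.844 and 0.422 CPM at E9.5, then 2.31 and 1.27, then 2.6 and 2.2, and 10.9 and 4.16 at E12.5. Its change was 3.62 ± 0.67 (adjusted p = 0.00387), or 2.75 without ectoderm E12.5 replicate 1, and the place of its counts along the gene differed as described above. Krt2, a type II keratin of the upper epidermis, had 0 counts in both libraries at E9.5, then 0.0887 and 0 CPM, then 0.426 and 0.0662, and 1.78 and 2.24 at E12.5, which was at least 17.1-fold higher than at E9.5 (floor of 3 counts over the group). It lost its call without ectoderm E9.5 replicate 2 (adjusted p = 0.114). Krt9, the type I keratin of palm and sole epidermis, had its highest mean at E10.5. Its levels were 0.211 and 0.302 CPM at E9.5, then 12.3 and 10.9, then 5.11 and 11.9, and 1.01 and 5.01 at E12.5. The change to E12.5 was 3.46 ± 0.84 (adjusted p = 0.0225), and without ectoderm E12.5 replicate 2 it was 1.91 (adjusted p = 0.128). Krt80 had 1.2 and 0.66 CPM at E9.5 and 7.09 and 4.16 at E12.5 (2.65 ± 0.61, adjusted p = 0.0149, and 0.138 without ectoderm E9.5 replicate 2). For Krt10 the difference was 0.66 ± 0.38 (adjusted p = 0.297).

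Of the 15 hair and nail members and the 8 members of the inner root sheath and companion layer, few were measurable. Krt35, a type I hair and nail keratin, had 0 counts at E9.5, then 0.976 and 0.934 CPM, then 4.64 and 2.78, and 22.6 and 6.40 at E12.5. It was at least 139-fold higher at E12.5 than at E9.5 (adjusted p = 0.000795). Krt75, a type II keratin of the companion layer and nail bed, had 1.2 and 1.8 CPM at E9.5, then 1.95 and 1.80, then 5.54 and 2.25, and 29.1 and 9.04 at E12.5. Its change was 3.66 ± 0.71 (adjusted p = 0.00505), and without ectoderm E12.5 replicate 1 it was 2.58 (adjusted p = 0.0595). Krt39 had 0.105 and 0.121 CPM at E9.5 and reached its highest mean at E11.5 with 2.13 and 1.79. Krt82 had 1.90 and 0.483 CPM at E9.5 and 0.137 and 0.132 at E12.5, did not pass the filter and was not tested.

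The remaining members above 1 CPM were Krt90, Krt42 and Krt222. Krt90 had 4.64 and 4.46 CPM at E9.5, then 7.89 and 4.94, and 2.33 and 1.52 at E12.5, and its neighbour Krt75 lies 0.394 kb away. Krt42 had its highest mean at E10.5 with 4.26 and 2.40 CPM and had no count in any mesoderm library. Krt222 had 0 and 0.181 CPM at E9.5 and 1.10 and 1.19 at E12.5. With the replicate number as a block, Krt7, Krt39 and Krt222 were also called higher, and Krt20 and Krt90 lower.

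**Figure D4:**
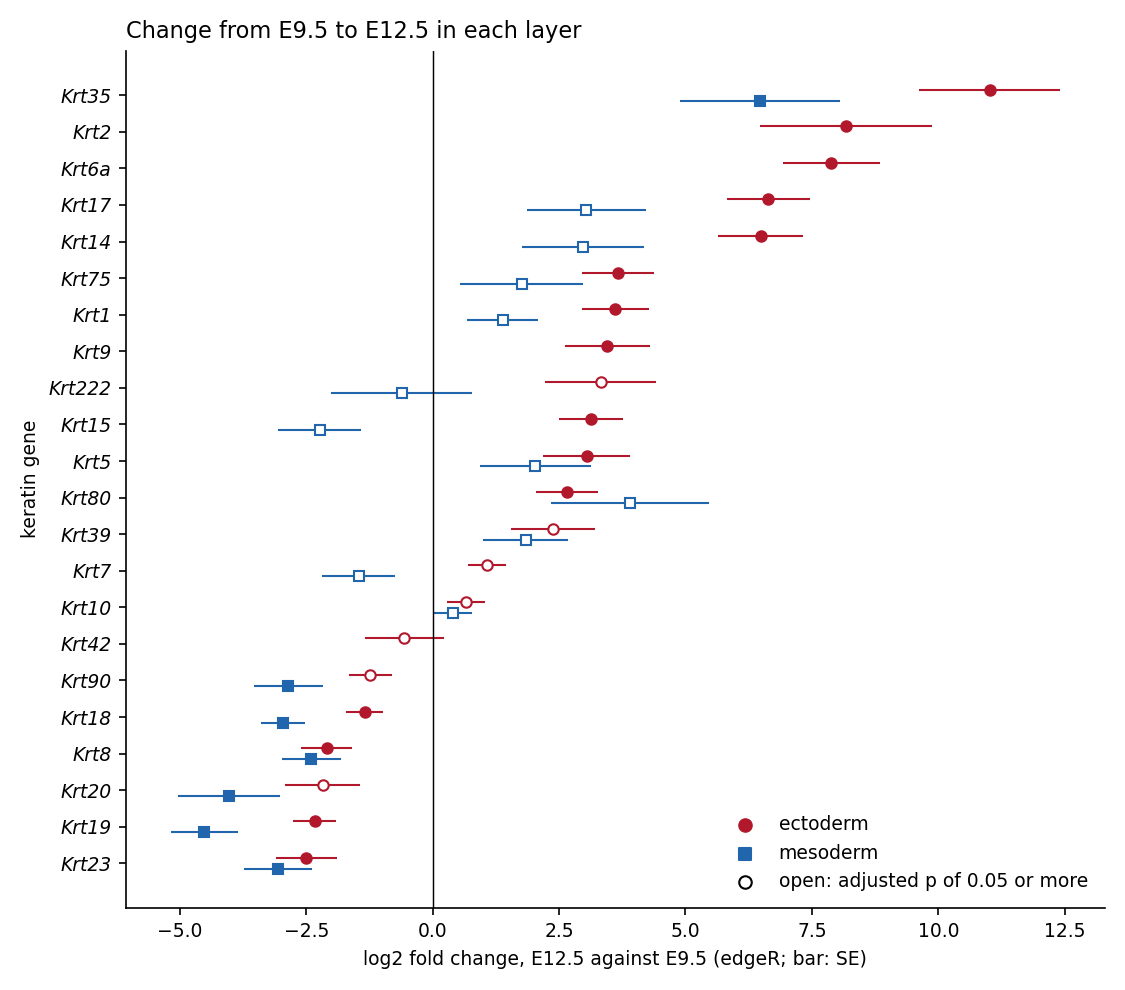
Log2 fold change from E9.5 to E12.5 (horizontal, edgeR, bars are SE) for 22 keratin genes (vertical) in ectoderm (red circles) and mesoderm (blue squares), filled where the adjusted p was under 0.05. Krt2, Krt6a, Krt9 and Krt42 have no mesoderm point because both mesoderm groups were at 0, and the points of Krt35 and Krt2 in ectoderm and of Krt35 and Krt80 in mesoderm are fitted against a group at 0. In ectoderm Krt14 and Krt17 moved by over 6 log2 units, while Krt8, Krt18, Krt19 and Krt23 lie left of 0 in each layer.

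Step by step, few single days passed the threshold. From E9.5 to E10.5, 4 members were higher (all genes 2.95%) and 0 lower (1.18%). They were Krt9 (5.42 ± 0.86, adjusted p = 0.00862), Krt39 (3.42 ± 0.81, 0.0386), Krt14 (3.33 ± 0.73, 0.0276) and Krt17 (3.24 ± 0.72, 0.0298), all of type I. Without ectoderm E9.5 replicate 2 all 4 missed the threshold, with adjusted p values of 0.115, 0.285, 0.216 and 0.272. With the replicate block 9 were higher, adding Krt7, Krt80, Krt1, Krt35 and Krt5. At an unadjusted p under 0.05, 2 members were lower at this step, and DESeq2 and limma each called 0 lower. From E10.5 to E11.5, 0 members were higher (all genes 0.00645%) and 0 lower (all genes 0%), where 4 and 3 had an unadjusted p under 0.05 and DESeq2 and limma called 0 in either direction. The replicate block called 3 higher at this step, Krt17, Krt14 and Krt6a. E11.5 replicate 1 carried the most mesenchyme marker RNA of the ectoderm libraries, and its part in these results was not tested.

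From E11.5 to E12.5 only Krt15 was higher (1 member, all genes 0.116%), by 3.96 ± 0.66 (adjusted p = 0.034), and 0 were lower (all genes 0.31%). Without ectoderm E12.5 replicate 1 the Krt15 step was 2.15 (adjusted p = 0.282), without replicate 2 it was 4.73, and 11 of the 16 leave-outs lost the call. At an unadjusted p under 0.05, 7 members were higher and 4 lower. DESeq2 and limma each called 2 higher, DESeq2 called 1 lower and limma 0. The replicate block called 3 higher (Krt15, Krt75 and Krt1) and 1 lower (Krt8).

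The same change was measured in mesoderm, where the levels were low. Of the 23 members 1 was higher at E12.5 than at E9.5 (all genes 17%) and 6 were lower (all genes 12.6%). The lower members were Krt19 (-4.51 ± 0.67), Krt20 (-4.03 ± 1.0), Krt23 (-3.06 ± 0.67), Krt18 (-2.96 ± 0.44), Krt90 (-2.85 ± 0.68) and Krt8 (-2.40 ± 0.59). Krt18 fell from 11.2 and 9.04 CPM to 1.52 and 1.04, and Krt8 from 7.07 and 8.18 to 1.79 and 1.04. In mesoderm 5 of the 6 simple epithelial members were lower, as were 4 of the 6 in ectoderm. Krt35 was higher, from 0 counts to 0.349 and 0.915 CPM, and lost its call without mesoderm E9.5 replicate 1 (adjusted p = 0.0731). Krt20 without mesoderm E12.5 replicate 1 changed by -2.99 (adjusted p = 0.102). Krt90 missed the threshold without mesoderm E12.5 replicate 1 (0.0798) or E9.5 replicate 2, and Krt8 without mesoderm E12.5 replicate 2 (0.0715), so that 4 of these 7 calls depended on a single library. Krt23 without mesoderm E12.5 replicate 1 changed by -4.36, and Krt19 without mesoderm E9.5 replicate 1 by -3.73. With the replicate block 4 members were higher, adding Krt14 (2.98), Krt17 (3.06) and Krt1, and 7 lower, adding Krt15.

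By edgeR without a block, Krt15 was the single member whose change passed the test of a difference between the layers. Its change in ectoderm minus that in mesoderm was 5.37 ± 1.02 (edgeR adjusted p = 0.00845), 1 member higher against 3.12% of all genes, and 0 members were lower against 5.15%. In mesoderm Krt15 went from 1.72 and 0.922 CPM to 0.305 and 0.244, almost all of it on the 3′ side of the gene. Without ectoderm E12.5 replicate 1 the difference was 3.57 (adjusted p = 0.0103), without replicate 2 it was 6.15, and the highest adjusted p over the 16 leave-outs was 0.0491. DESeq2 called 4 members higher and limma on FPKM 9. These counts, and that of the block below, have no share of all genes beside them. No member was lower at an unadjusted p under 0.05 (0 members), by DESeq2 (0) or by limma (0). With the embryo batch as a block 4 were higher, adding Krt19 (2.2, adjusted p = 0.0314), Krt7 (2.54, 0.0261) and Krt18 (1.61, 0.0106).

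The make-up of the keratin transcripts was read from FPKM, which is per length. Simple epithelial members held 63.6% and 68.5% of the summed keratin FPKM in ectoderm at E9.5, then 42.7% and 37.9%, then 12.4% and 20.3%, and 4.70% and 7.41% at E12.5. Basal members held 33.7% and 28.9%, 53.4% and 56.2%, 75.4% and 68.2%, and 81.9% and 78.8%. Periderm, mucosal and stress members held 0.662% and 0.573% at E9.5 and 12% and 12.6% at E12.5. The stages did not overlap in the first or the second of these shares. The summed FPKM of the simple epithelial members was 242 and 205 at E9.5, then 337 and 241, then 118 and 211, and 104 and 99.2 at E12.5, while that of the basal members was 129 and 86.2 at E9.5 and 1815 and 1053 at E12.5. Suprabasal members held 0.498% to 1.56% in the ectoderm libraries, and hair and nail members 0.143% to 0.476%.

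Krt5 held the largest share of any member in all 8 ectoderm libraries, 25.6% to 47.1%. Krt18 came next at E9.5 and E10.5 and Krt14 at E11.5 and E12.5. The top 4 members made up 84.3% to 93.7%. Type I chains made up 46.3% ± 3.2 of the summed FPKM at E9.5, then 35.1% ± 1.9, then 46.1% ± 2.7, and 49.8% ± 0.40 at E12.5 (SD, n = 2). They were thus nearest to parity with type II at E12.5 and farthest from it at E10.5. The chromosome 11 genes alone gave 23.0%, 17.8%, 39.7% and 47.8%, because Krt18 lies on chromosome 15. In mesoderm type I made up 48.7% to 85.8% in single libraries.

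**Figure D5:**
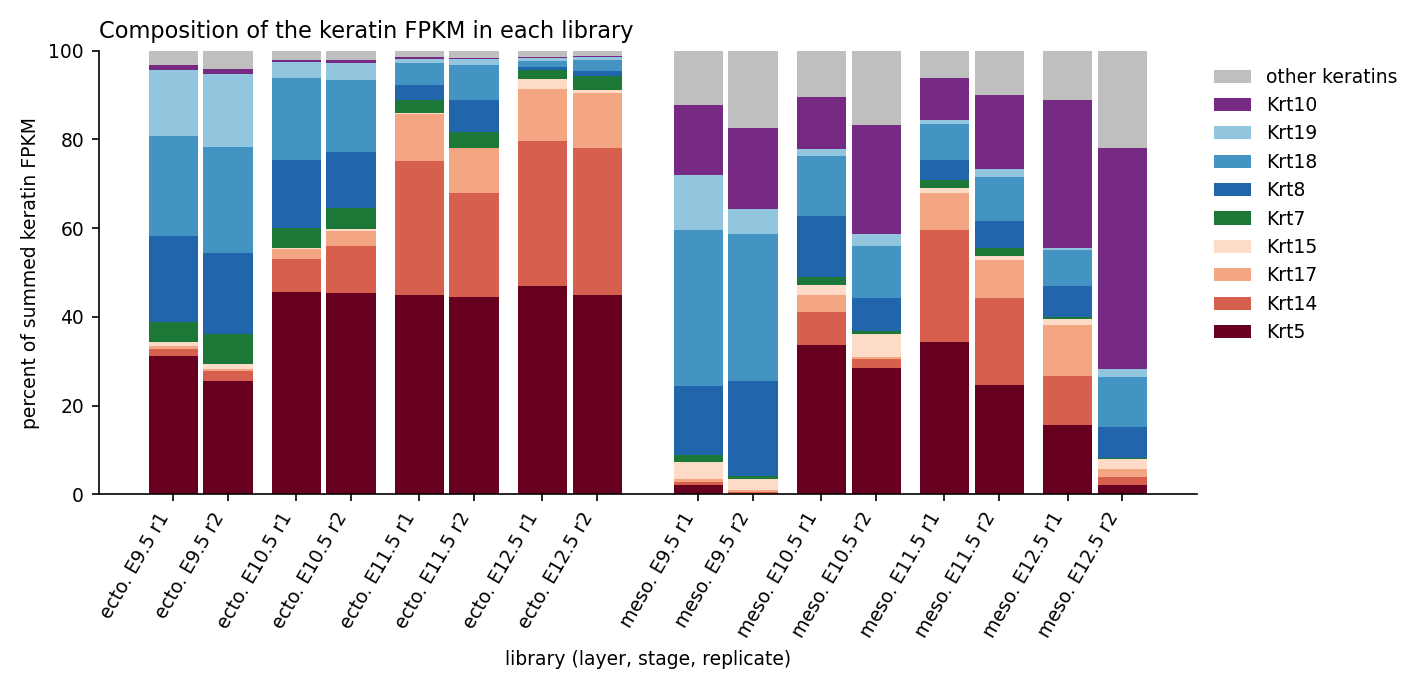
Percent of the summed keratin FPKM (vertical) held by 9 keratin genes and by all others in each of the 16 libraries (horizontal, ectoderm left and mesoderm right, r1 and r2 are the replicates). In ectoderm the blue simple epithelial members shrink and Krt14 and Krt17 grow beside a broad Krt5 share, and in mesoderm Krt10 takes 9.43% to 49.8%.

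The genes that hold and control keratins were read from lists chosen beside the members. Of 13 linkers that tie keratin filaments to cell junctions or bundle them, 12 were higher in ectoderm averaged over stages (all genes 24.3%), with a median log2 difference of 4.11. The largest were Pof1b (8.59 ± 0.44), Ppl (periplakin, 7.55 ± 0.20) and Eppk1 (epiplakin, 7.06 ± 0.49). The remaining gene was Tchp (-0.09 ± 0.09), named after its values were seen. From E9.5 to E12.5 in ectoderm 9 of 13 linkers were higher (all genes 9.1%), led by the desmosomal plakophilin gene Pkp1 (4.15 ± 0.55), the envoplakin gene Evpl (4.04 ± 0.39) and Eppk1 (4.02 ± 0.65).

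Of 20 transcription factors and other regulators of epidermis, 19 were higher in ectoderm (all genes 24.3%), with the largest values for Ovol1 (7.94 ± 0.29), Trp63 (7.70 ± 0.19) and Hoxc13 (7.17 ± 0.29). Trp63 encodes p63, which directs stratification and regulates basal keratins, and Hoxc13 regulates hair and nail keratins. From E9.5 to E12.5 in ectoderm 10 were higher (all genes 9.1%) and 1 lower (all genes 7%), led by Hoxc13 (6.27 ± 0.47), Zfp750 (5.92 ± 0.45) and Foxq1 (5.38 ± 1.03), with Gata3 lower (-2.39 ± 0.37). For Trp63 the difference was 0.35 ± 0.28 (edgeR adjusted p = 0.481). The part of these regulators in the keratin changes was not tested.

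Intermediate filament genes other than keratins were also read. Of 12 tested, 3 were higher in ectoderm, near the 24.3% of all genes, Bfsp2 (4.46 ± 0.59), Ina (1.28 ± 0.41) and Bfsp1 (1.02 ± 0.26), and 5 were lower (all genes 21.4%), led by Nefm (-2.43 ± 0.26), Des (-1.66 ± 0.37) and Vim (vimentin of mesenchyme, -1.14 ± 0.25). Within ectoderm from E9.5 to E12.5, Lmna (2.37 ± 0.69) and Vim (2.18 ± 0.51) were higher and Des (-5.09 ± 0.72), Nefl (-3.92 ± 0.66) and Nefm (-3.48 ± 0.59) were lower.

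At E12.5 the ectoderm replicates differed in several keratins. Of 22 members with over 3 counts in both libraries, 6 were over 2 times higher in replicate 1 and 2 in replicate 2, with ratios of 0.201 (Krt9) to 5.95 (Krt15) and a median of 1.70. Over all tested genes with a count in both libraries the median ratio was 1.01. Of these genes 4.47% were over 2 times higher in replicate 1 and 8.94% in replicate 2. The 2 members higher in replicate 2 are near that share of all genes. The limit of over 3 counts was set for the members only, so these shares can include genes with fewer counts and are not on the same footing. The surface epithelium markers had a median ratio of 1.23, with a range of 0.95 to 1.74. The replicates were also extracted with different RNA kits, and embryo batch and kit cannot be told apart.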

How the data were processed

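The authors deposited gene counts (whole numbers) for 53800 genes, FPKM values and counts per exon bin. Per the submitters' processing notes reads went through STAR 2.6.0c (mm10), with bedtools 2.27.1, Cufflinks 2.2.1 and cutadapt 1.16 also named. The counting tool and its strand setting are not given in the sources used here. The members and gene lists were chosen with earlier results of these data known. Every member above 1 CPM in a group is named, with the 3 nearest on each side. Of the gene lists, the 3 largest called differences in each direction are named. The deposited counts were fitted with edgeR 4.0.16 in R 4.3.3 (TMM, filterByExpr, 1 mean per group, 16 libraries, 15501 genes, checked on simulated data). SE is the estimate divided by the square root of its F. Alternatives were DESeq2 1.42.0, limma 3.58.1 on log2(FPKM + 0.1) of genes above 0.5 in 2 libraries, other size factors, no filter, each library left out, and a block. The block was the embryo batch between layers and the replicate number between stages. The labels give the pairing, and replicate differences of the layers correlated across genes (r 0.546, 0.666, 0.561 and 0.651 from E9.5 to E12.5). Bins were placed with GENCODE M21. Protein sequences were not used here.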

Additional observations from a re-analysis of the deposited data

Results flagged for a closer look

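The change of Krt15 from E9.5 to E12.5 differed between the layers, by 5.37 on the log2 scale (edgeR interaction, SE 1.02, adjusted p = 0.00845). In ectoderm it went from 8.54 and 7.18 CPM to 118 and 19.8, and in mesoderm from 1.72 and 0.922 to 0.305 and 0.244. Without ectoderm E12.5 replicate 1 the difference was 3.57.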

How the results depend on the processing

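Of the 115 called results of members above 1 CPM, recomputed 2407 times in all, 2251 values kept their direction and side of the threshold, 156 kept the direction only, and 0 reversed, calls gained not being counted here. Leaving out 1 library gave 17 to 22 members higher in ectoderm on average over the stages, 10 to 15 at E9.5, 13 to 18 at E10.5, 14 to 20 at E11.5 and 17 to 20 at E12.5. In ectoderm it gave 5 to 12 higher and 1 to 4 lower from E9.5 to E12.5, 0 to 5 higher at the E10.5 step, 0 to 1 higher at the E12.5 step, in mesoderm 0 to 4 higher and 4 to 7 lower, and 1 to 2 for the difference between layers. Without the filter on low counts, the E10.5 step had 9 higher and 2 lower, the E11.5 step 4 and 3, the E12.5 step 6 and 2, mesoderm 4 higher and the difference between layers 6. With the replicate block, these were 9 higher (E10.5 step), 3 higher (E11.5 step), 3 higher and 1 lower (E12.5 step), 4 higher (mesoderm) and 4 (difference between layers). DESeq2 gave 2 higher and 1 lower at the E12.5 step, 3 higher in mesoderm and 4 for the difference, and limma gave 2 and 9. The cause of these moves was not tested. The type I share at E12.5 was 50.6% from CPM per kilobase of exon. Thresholds of 0.5 and 2 CPM gave 24 and 19 members. Counting only 5′-side bins, chosen after seeing the data, left 0 of 543 mesoderm counts of Krt10, 0 of 96 of Krt1 and 10 of 165 of Krt15. With 2 batches per stage and few counts, low members had wide errors.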
